A study of Mus musculus with 4 samples.

Results

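The peaks described here are the sites of topoisomerase IIα (TopoIIa) activity at the centromere-side end of 17 mouse autosomes, chromosomes 1 to 19 without 8 and 11. A peak was taken when it began before position 10000000 in the build mm9. Of the 21213 peaks of both lists 959 did so, 708 of the 16591 wild-type peaks (4.27%) and 251 of the 4622 Brg1 knockout peaks (5.43%). The rule uses position only.

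The cells were 1 mouse embryonic stem cell line with a floxed Brg1 gene and an actin-driven, tamoxifen-inducible Cre. Both groups carried V5-tagged human TopoIIa and a short hairpin RNA against the mouse enzyme. The wild-type group received ethanol and the knockout group tamoxifen for 24 h, both were then left in plain medium for 48 h, and both met 100 µM etoposide for the last 10 min. Of the 4 samples, the V5 immunoprecipitation of each genotype, with 1 library each, gave a peak list, and the 2 inputs were not analysed here. Neither list measures Brg1 or a stem cell marker, so genotype and cell type rest on the labels.

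TopoIIa cuts both strands of a DNA duplex, lets another duplex through and reseals the cut, which is how linked sister chromatids come apart before they separate in mitosis. Centromeric DNA is the last to be unlinked and is a known place of TopoIIa activity. Mouse chromosomes are telocentric: the centromere, built of satellite repeats, sits at one end, and the numbering of the sequence starts there. Etoposide traps the enzyme at the cut, bound to the DNA. Brg1 is the motor subunit of BAF (mSWI/SNF) complexes, which move nucleosomes and have been linked to TopoIIa.

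The satellite repeats themselves are outside the window that could be seen. On chromosomes 1 to 19 and X no peak of either list began before 3 Mb, the stretch that the build fills with a placeholder for the centromere. The wild-type member closest to the chromosome start lay on chromosome 4 at chr4:3006673-3014271, 7599 bp wide with a score of 68.2. Its counterpart in the knockout list was chr18:3005159-3005578, 420 bp wide with a score of 108.76. The score is the authors' value for each peak and ranks peaks within 1 list only. The first wild-type peak began within 0.25 Mb of that point on 13 of 17 chromosomes, and so did the first knockout peak, though not on the same 13. The latest first wild-type peak began at 4074639 on chromosome 1 and the latest first knockout peak at 3926798 on chromosome 3. Densities below are therefore counted over the 7 Mb from 3 to 10 Mb.

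**Figure D1:**
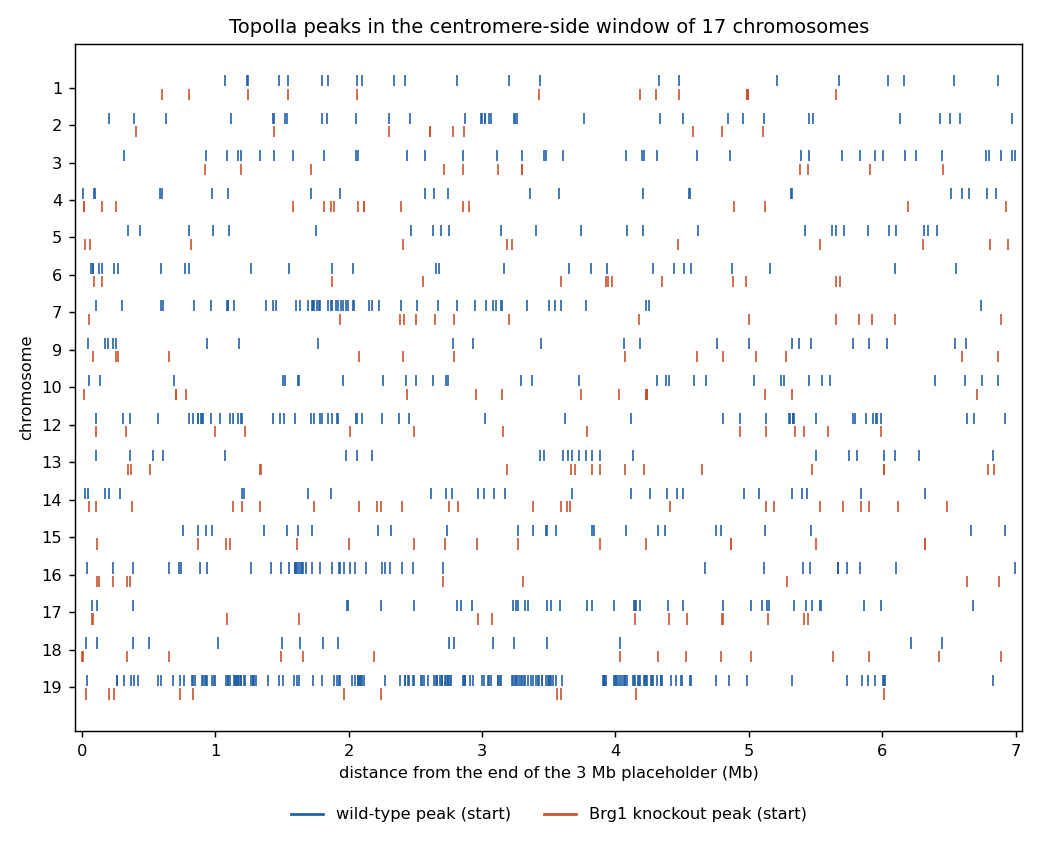
Start of each peak in the centromere-side window, by chromosome (rows), against the distance from the end of the 3 Mb placeholder in Mb, with wild-type peaks in blue and knockout peaks in orange. Chromosome 19 carries 181 of the 708 wild-type peaks, while the 251 knockout peaks are spread over all 17 chromosomes with 10 to 26 on each.

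Over the whole window wild-type TopoIIa sites were about as dense as in the middle of the same chromosomes, and less dense once chromosome 19 was left out. The window held 5.95 wild-type peaks per Mb and the middle 5.96, a ratio of 0.998 (exact 95% interval 0.923 to 1.08). Chromosome 19 supplied 181 of the 708 peaks (25.6%). Without it the window held 4.71 per Mb against 5.98 in the middle, a ratio of 0.787 (0.719 to 0.859). Taken alone, the part from 3 to 5 Mb was denser than the middle, 1.24 times (1.09 to 1.404), and without chromosome 19 it held 196 peaks, 6.13 per Mb or 1.02 times the middle (0.884 to 1.18). Peaks stand in groups, so these intervals understate the error, and chromosomes of 1 library are not replicates.

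By chromosome, the window had fewer wild-type peaks per Mb than the middle on 12 of 17 chromosomes and more on 5 (3, 7, 12, 16 and 19). The sparsest window was that of chromosome 18, with 17 peaks or 2.43 per Mb against 4.96 in its middle. The windows of chromosomes 1 and 9 followed with 3.14 and 3.29 per Mb. Among the chromosomes other than 19 the median was 4.07 per Mb and the highest 8.29 per Mb, with 58 peaks on chromosome 12. Chromosome 7 followed with 55 peaks (7.86 per Mb) and chromosome 16 with 46 (6.57 per Mb). Chromosome 17 was among the 12 with a sparser window: its middle was the densest of all, at 10.6 per Mb, and its window held 5.71 per Mb.

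Chromosome 19 stood apart from the other 16. Its window held 25.9 wild-type peaks per Mb and its middle 4.60, a ratio of 5.62 (4.37 to 7.26). The window thus contained 37.2% of the 487 wild-type peaks of that chromosome. Nearly all of them, 172 of 181, began before 8 Mb, and the 2 Mb that follow held 9. The stretch from 10 to 11 Mb held 28 more, and the one after it held 4. The knockout list did not show this: 11 of its members lay in the window of chromosome 19, or 1.57 per Mb, against 1.31 in its middle, with a ratio of 1.20 (0.537 to 2.48).

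Knockout peaks were somewhat denser on the centromere side. The window held 2.11 knockout peaks per Mb and the middle 1.68, a ratio of 1.25 (1.10 to 1.43). Density was higher in the window on 12 of 17 chromosomes and lower on 5 (2, 5, 6, 12 and 16). The counts ran from 10 peaks on chromosomes 2 and 16 to 26 on chromosome 14, where the window held 3.71 per Mb and the middle 1.53. Leaving out any 1 chromosome kept the ratio between 1.19 and 1.31, and the lowest value came without chromosome 14. If the window is counted from the chromosome start, placeholder included, the ratio turns to 0.878 (0.768 to 1.00).

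Knockout peaks were also denser than in the middle beyond the window. The stretch from 10 to 20 Mb held 4.76 wild-type peaks per Mb, 0.798 times the middle (0.742 to 0.858), and 2.02 knockout peaks per Mb, 1.20 times the middle (1.07 to 1.34). The opposite end of the same chromosomes differed: the last 10 Mb held 8.66 wild-type peaks per Mb, 1.45 times the middle (1.37 to 1.54), and 1.66 knockout peaks per Mb, 0.987 times the middle (0.869 to 1.12). The difference between the 2 ends was not tested.

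**Figure D2:**
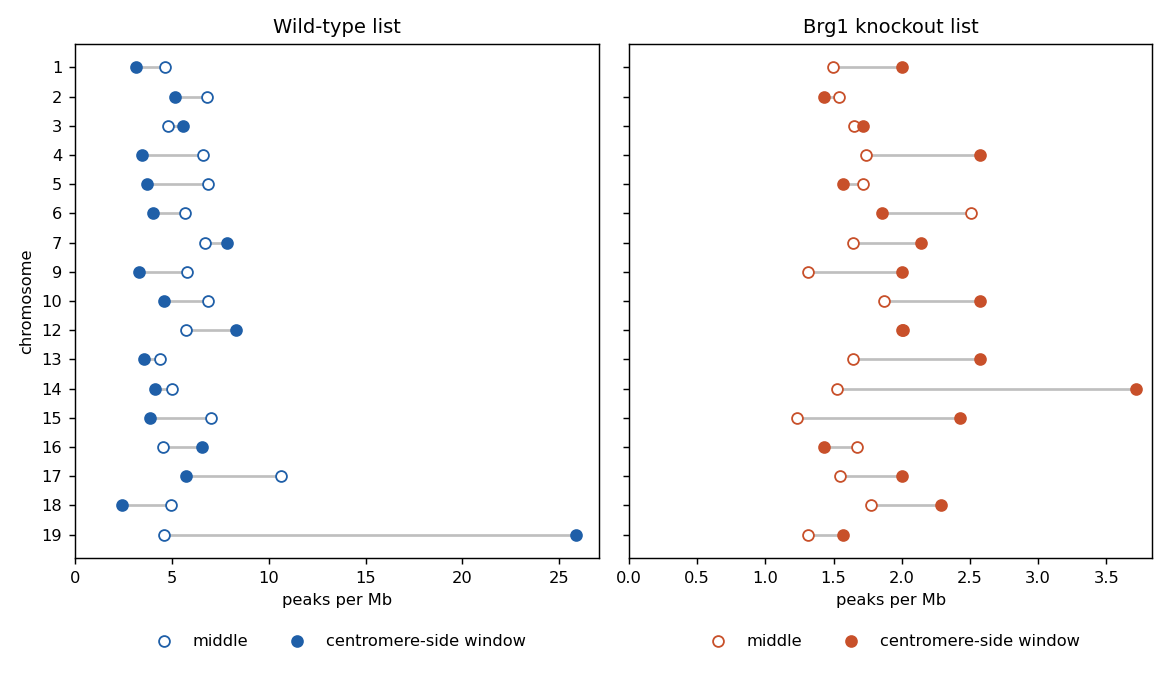
Peaks per Mb of each chromosome in the centromere-side window (filled) and in the middle (open), for the wild-type list (left) and the knockout list (right, other scale). Wild-type values are lower in the window on 12 of 17 chromosomes, with chromosome 19 at 25.9 per Mb, and knockout values are higher on 12 of 17.

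With these densities the lists were closer to each other in number on the centromere side than in the middle. The window held 2.82 wild-type peaks for each knockout peak, the stretch from 10 to 20 Mb 2.36, the middle 3.55 and the last 10 Mb 5.22. Without chromosome 19 the window held 2.20, the stretch from 10 to 20 Mb 2.28 and the middle still 3.55. The number was lower in the window than in the middle on 13 of 17 chromosomes, and higher on 3, 12, 16 and 19. It ran from 1.06 on chromosome 18, where 17 wild-type and 16 knockout peaks were called, to 16.5 on chromosome 19.

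Within the window the wild-type density was highest from 4 to 5 Mb, at 8.71 per Mb (148 peaks), and fell off to 3.35 per Mb (57 peaks) from 9 to 10 Mb. Chromosome 19 supplied part of this slope, with 32 to 42 peaks in each 1 Mb step from 4 to 8 Mb. Without it the highest and the lowest of the 7 steps were the same ones, at 7.25 and 3.31 per Mb, and the step from 8 to 9 Mb (4.50) exceeded the one before it (3.56). The knockout density had no such order: it was 2.88 per Mb (49 peaks) from 3 to 4 Mb, 1.53 (26 peaks) in the next step, and between 1.41 and 2.59 in the others.

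**Figure D3:**
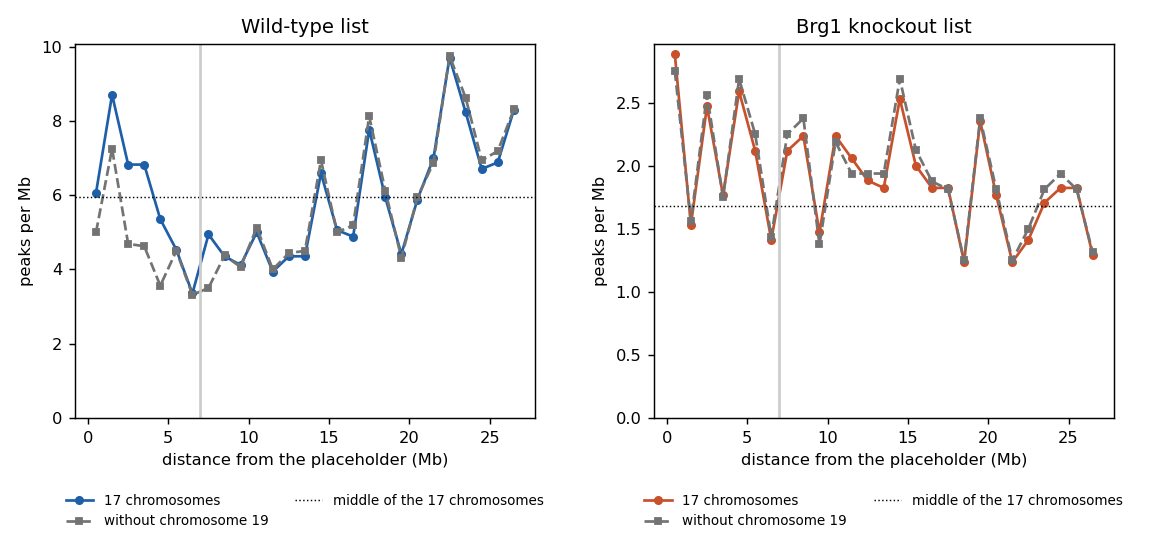
Peaks per Mb in steps of 1 Mb against the distance from the placeholder, for the wild-type list (left) and the knockout list (right, other scale), over 17 chromosomes (coloured) and without chromosome 19 (grey), with the density of the middle as a dotted line and the end of the window as a vertical line. Inside the window wild-type values go from 6.06 to 8.71 per Mb and then down to 3.35, and the first knockout step, 2.88 per Mb, is the highest of those shown.

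Of the 49 knockout peaks in the first step, 24 stood in its first 0.25 Mb, on 13 chromosomes. This was 5.65 per Mb, 3.36 times the middle (2.15 to 5.01). The stretch was chosen after its values were seen, and some of its peaks adjoin each other, so this interval understates the error. No chromosome had more than 3 of the 24 peaks. These peaks were also wider and scored higher than the rest of the window: their median width was 204.5 bp against 141 bp and their median score 66.4 against 58.2. A score of at least 100 was reached by 5 of the 24 (20.8%, exact 95% interval 7.13 to 42.2%) and by 20 of the other 227 (8.81%, 5.46 to 13.3%), and these intervals overlap. The wild-type list had 30 peaks there, also on 13 chromosomes, 7.06 per Mb or 1.18 times the middle (0.798 to 1.69). Of these, 5 were over 5 kb wide, against 16 of 678 in the rest of the window. Without this stretch the knockout ratio of window to middle was 1.18 (1.02 to 1.35). Sequence next to a centromere is rich in repeats, and whether the inputs are also high at these positions was not tested.

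The 2 lists met at 5 of those 24 knockout peaks. At chr12:3109775-3110142 lay the top-scoring knockout member (368 bp, score 645.12), inside a wild-type peak of only moderate score (chr12:3108421-3111317, score 159.22). At chr6:3150746-3151658 the third-ranked knockout member (score 566.84) lay inside a wild-type peak of score 563.44. A pair of adjacent knockout peaks on chromosome 4, chr4:3016621-3017190 (score 271.03) and chr4:3017205-3018476 (score 369.07), lay 2.35 and 2.93 kb beyond the wild-type peak closest to the start of that chromosome and touched none.

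In strength the wild-type sites of the window were like those of the middle. Their median score was 108.67 (interval of the median 102.78 to 116.66, interquartile range 70.8 to 178.9) against 105.57 (103.77 to 107.45). A score of at least 100 was reached by 389 of 708 (54.9%) in the window, by 52.9% in the middle and by 53.1% of the whole list. The difference of window and middle was 2.02 percentage points (-1.80 to 5.79). The median was higher in the window on 7 chromosomes and lower on 10. It ran from 84.19 on chromosome 14 to 153.32 on chromosome 18, the chromosome with the fewest peaks.

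Their widths were close to those of the middle as well, except in the upper tail. The median width was 2168 bp (2125 to 2230) in the window and 2130 bp (2113 to 2142) in the middle. Without chromosome 19, whose own median was 2341 bp, it was 2102 bp. Of the 708 window peaks 21 (2.97%) were wider than 5 kb, against 1.46% in the middle and 2.07% of the whole list. The window exceeded the middle by 1.504 percentage points (0.451 to 3.05). Chromosome 19 held 9 of the 21, and without it the difference was 0.810 points (-0.196 to 2.49), an interval that includes 0. The widest was chr3:6296909-6308677 with 11769 bp (score 2370.06), and next came chr17:3075384-3085215 with 9832 bp (score 246.97). On chromosome 19 the widest was chr19:5682948-5691516 with 8569 bp (score 620.78).

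Knockout members were mostly short and low in score, like the knockout peaks of the middle, with higher upper percentiles but lower maxima. Their median width was 143 bp (139 to 145) against 141 bp (140 to 141) in the middle, and 244 of the 251 were narrower than the narrowest wild-type member of the window (844 bp). The median score was 58.74 (57.65 to 60.15) against 58.25 (57.68 to 58.96). A score of at least 100 was reached by 25 (9.96%), by 7.51% in the middle and by 7.64% of the whole list. The window exceeded the middle by 2.45 percentage points (-0.852 to 6.89). At the 95th percentile the width was 490.5 bp in the window and 309 bp in the middle, and the score 154.2 and 113.7. The maxima were 1736 bp and 645.12 in the window against 5922 bp and 3100 in the middle. Several of the widest window members, with 1736, 1233 and 1044 bp among them, belong to a single group on chromosome 10, described below. None of the 11 knockout members on chromosome 19 scored above 75.71.

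**Figure D4:**
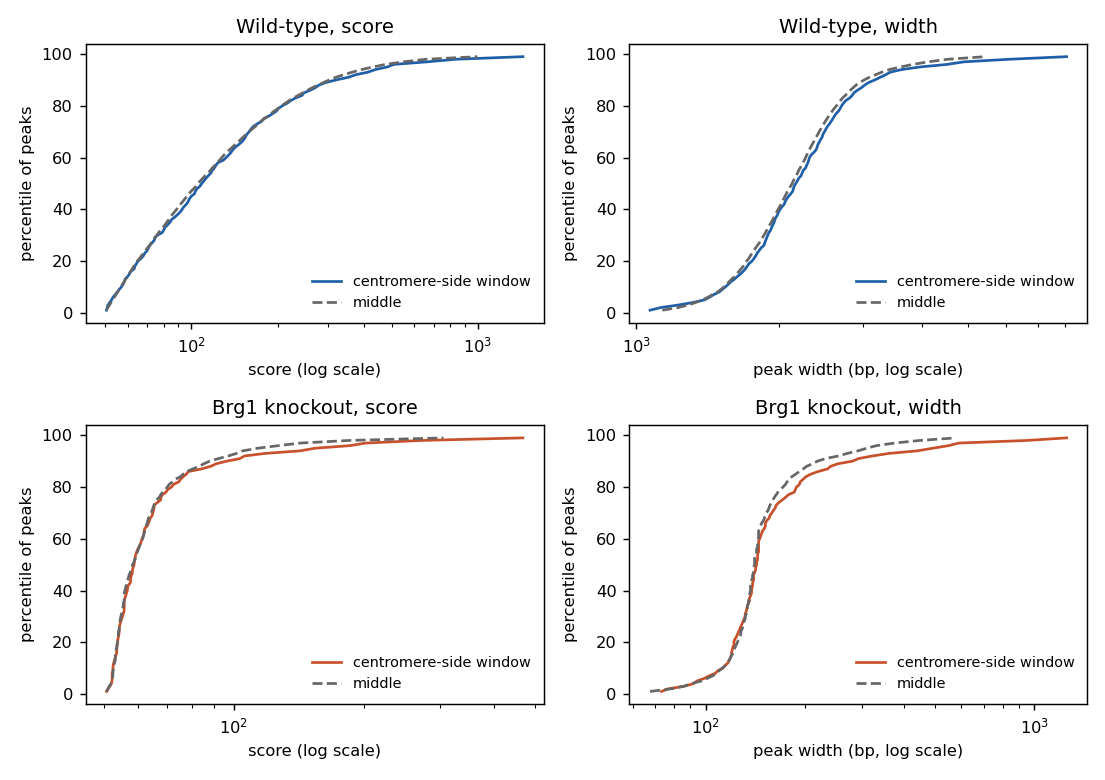
Percentiles of score (left) and width in bp (right), both on log axes, for wild-type (top) and knockout peaks (bottom) in the centromere-side window (coloured) and in the middle (dashed). The curves run close together through their medians of 108.67 and 105.57 for wild-type score and 2168 and 2130 bp for wild-type width.

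A wild-type site near the centromere was shared with the knockout list about as often as one in the middle. Among the 708 members 34 met a knockout peak (4.80%, exact 95% interval 3.35 to 6.65%), against 5.02% (4.58 to 5.49%) in the middle and 4.93% of the whole list. The difference was -0.218 percentage points (-1.64 to 1.66). On chromosome 19 the share was lower: 3 of its 181 peaks were shared (1.66%, 0.343 to 4.77%). On the other chromosomes 31 of 527 were shared (5.88%, 4.03 to 8.25%), and these intervals overlap. The window of chromosome 19 held only 11 knockout peaks. Of these 11, 3 were shared (27.3%, 6.02 to 61.0%), against 34 of 240 (14.2%, 10.0 to 19.2%) on the other chromosomes. Per length, chromosome 19 had 0.429 shared wild-type peaks per Mb of window, from 3 peaks, and the other chromosomes 0.277.

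Shared wild-type peaks had higher scores than unshared ones in the window. In the top 25% of wild-type scores (180.48 or more) 17 of 175 window peaks were shared (9.71%, 5.76 to 15.1%), and 9.50% in the middle. In the lowest 25% of scores, 4 of 169 were shared (2.37%, 0.649 to 5.95%), and 1.28% in the middle. The second bin of the window, with 3 of 174 (1.72%), lay below its lowest bin, and the third had 10 of 190 (5.26%). In the middle the share was higher at every step, through 3.21% and 6.12%. The median score was 181.25 for the 34 shared and 106.97 for the 674 unshared window peaks.

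Seen from the knockout list, fewer members were shared in the window, by a margin within the counting error. Of the 251 knockout members 37 (14.7%, 10.6 to 19.7%) lay on a wild-type peak, against 19.4% (17.9 to 21.0%) in the middle and 21.2% of the whole list. The difference was -4.69 percentage points (-8.85 to 0.448). The last 10 Mb of the same chromosomes had 30.1% (24.8 to 35.9%), an interval that does not meet that of the window. Wild-type peaks covered 14.2 kb per Mb of the window, 13.6 of the middle and 21.3 of the last 10 Mb. Their mean widths were 2383, 2276 and 2458 bp. Without chromosome 19 the coverage was 10.8 kb per Mb of the window, 13.6 of the middle and 21.9 of the last 10 Mb. The part of this coverage in the shares was not tested. The number of shared knockout peaks per Mb was 0.311 in the window and 0.327 in the middle, a ratio of 0.952 (0.662 to 1.33). The other 214 knockout members, without a wild-type partner, stood at 1.80 per Mb against 1.35 in the middle, a ratio of 1.33 (1.15 to 1.53).

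By score, 22 of the 65 window members in the top 25% of knockout scores (33.8%, 22.6 to 46.6%) were shared, close to the 35.2% of the middle. In the 3 lower bins of 25% the window had 8.62%, 7.94% and 7.69%, from 5 shared peaks each, and the middle 13.2%, 12.7% and 17.0%. The window's interval for the third of these ran from 2.54 to 17.0%.

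**Figure D5:**
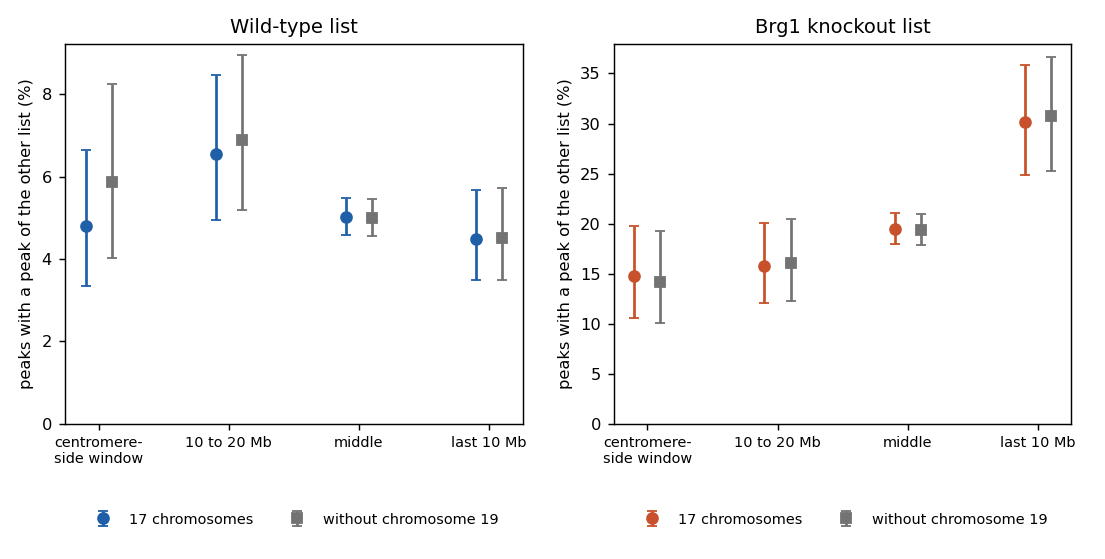
Percent of wild-type peaks (left) and knockout peaks (right, other scale) that overlap a peak of the other list, with exact 95% intervals as bars, in 4 parts of the 17 chromosomes (circles) and without chromosome 19 (squares). For knockout peaks the share is 14.7% in the centromere-side window, 19.4% in the middle and 30.1% in the last 10 Mb.

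The 37 shared pairs involved 34 wild-type peaks on 14 chromosomes, and in every pair the knockout peak lay wholly inside the wild-type peak. The same held for 499 of 502 pairs in the middle (99.4%). Median widths in the window's pairs were 143 bp for knockout and 2426 bp for wild-type peaks, so little else could occur. Chromosomes 4, 5 and 7, with 105 wild-type and 44 knockout members, had no shared pair, where the whole lists had shares of 4.93% and 21.2%. They were singled out for having none, so nothing is read from this. In 22 pairs (59.5%, 42.1 to 75.2%) the centre of the knockout peak fell in the central 25% of the wild-type peak, against 53.4% (48.9 to 57.8%) in the middle. In 11 pairs both peaks scored at least 100. After the pairs on chromosomes 12 and 6 described above, the highest knockout scores were at chr13:9833501-9833754 (207.9, wild-type 277.44), chr3:5860295-5860842 (207, wild-type 321.96) and chr3:6116051-6116244 (188.26, wild-type 773.76). The last of these sat almost exactly at the middle of a narrow wild-type peak of 1172 bp.

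Of the 10 strongest wild-type sites of the window 2 were shared, and of the 50 strongest 7, against 4.80% of all wild-type members and 4.93% of the whole list. The top one was chr13:6604114-6613238 (9125 bp, score 3109.65), with no knockout peak closer than 54.5 kb. The second, chr3:9449514-9452855, had a score of 3100, a value that 26 wild-type peaks of the whole list share exactly, so its rank among them carries no information. It held a knockout peak of score 52.46, close to the lowest of that list. The third was chr6:5653527-5657178 (score 2802.67, 92.8 kb from a knockout peak) and the fourth chr17:8098824-8106910 (score 2394.64, 38.3 kb).

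The fifth was the widest, on chromosome 3 (score 2370.06), and held 2 knockout peaks of score 53.56 each. The remaining 5 of the top 10, at chr15:9666815-9668571, chr15:6476831-6484368, chr3:9801707-9804953, chr5:3434759-3439666 and chr12:4923137-4925432, scored from 1733.67 down to 1279.88. Their distances to the knockout list were 84.6 to 370 kb.

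Among the 10 strongest knockout members 5 lay on a wild-type peak, against 14.7% of all knockout members and 21.2% of the whole list. They were the 5 pairs already named, on chromosomes 12, 6, 13 and 3. The strongest without a partner was chr17:4626116-4626591 (476 bp, score 634.76), 358 kb from the nearest wild-type peak. The others without a partner were the adjacent peaks at the start of chromosome 4 and 2 members of a group on chromosome 10.

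That group was the only one in the knockout list of the window with at least 5 peaks at gaps of up to 10 kb. It held 6 peaks over 7.27 kb, chr10:7229382-7236653, with widths of 236 to 1736 bp and scores of 56.26 to 277.7. The nearest wild-type peak was 72.3 kb away. Without these 6 peaks the knockout ratio of window to middle was 1.22 (1.07 to 1.396).

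Among the 17 windows, wild-type groups of this kind were found on chromosome 19, 4 in number with 25 peaks (3.53% of the members). The middle of the chromosomes had 79 such groups with 524 peaks (5.72%), so they are not particular to chromosome 19. The biggest, chr19:4141969-4198133, held 9 peaks over 56.2 kb with a median score of 83.59 and a top score of 168.66. The others were chr19:5067230-5101469 with 6 peaks, chr19:5723755-5758453 with 5 and chr19:6903932-6931231 with 5. None of the 25 peaks overlapped a knockout peak, and none had one closer than 99.9 kb. At the whole list's share of 4.93%, few overlaps would fall among 25 peaks, so nothing is read from this. The median gap between neighbouring wild-type peaks was 12.6 kb in the window of chromosome 19, 114.6 kb in the other windows and 78.7 kb in the middle.

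With gaps of up to 50 kb the window of chromosome 19 had 9 groups of at least 5 peaks, with 138 of its 181 peaks. The biggest held 27 peaks, from 6985273 to 7354879, and the next 26, from 6226457 to 6602223. Chromosome 16 had 11 peaks from 4552453 to 4727301 and chromosome 7 had 11 from 4842161 to 5048019. All 4 of these groups were without an overlapping knockout peak, where the whole list had a share of 4.93%. They were chosen after their values were seen, so nothing is read from this. Other such groups did hold shared peaks: 2 of the 5 at chr6:3070910-3152893, 1 of the 5 at chr12:8880171-8991393 and 1 of the 11 at chr19:3823503-4005499. Over all 17 windows 31.6% of the wild-type peaks stood in such groups of at least 5, against 24.8% in the middle, but without chromosome 19 the window had 16.3% and the middle 25.1%.

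Some windows also had long stretches without a wild-type peak. The longest was on chromosome 7, from 7254198 to 9741259 (2.49 Mb), on the same chromosome whose earlier part carried dense groups. It contained 5 knockout peaks. The next was on chromosome 18, from 7035279 to 9212013 (2.18 Mb), with 6 knockout peaks. Over all 17 windows the knockout list had 2.11 peaks per Mb, so nothing is read from these counts.

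Members next to the limit at 10 Mb were low to moderate in score. The last wild-type member inside it was chr3:9995133-9996742 (1610 bp, score 63.29), and the first outside was chr4:10037046-10039911 (2866 bp, score 160.89). The last knockout member was chr5:9944642-9944947 (306 bp, score 83.51), and the first outside chr6:10025098-10025241 (144 bp, score 55.46). A score of 83.51 is high for a knockout member, since the 86th percentile in the window was 78.43. None of the 4 overlapped a peak of the other list, where the whole lists had shares of 4.93% (wild-type) and 21.2% (knockout). With so few peaks nothing is read from this.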

How the data were processed

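Covalent TopoIIa-DNA complexes were immunoprecipitated through the V5 tag from wild-type and Brg1 knockout cells, 1 library each, and each library has 1 deposited peak list with chromosome, start, end, name and score. Per the submitters' processing notes, the tools were Bowtie 0.12.8 and MACS 1.4.2 and the build was mm9, with no roles stated. The score that the authors deposited has no header, so it was used only to rank or filter peaks within a list. The peak positions of the deposited lists gave widths and distances and are printed 1-based. How the authors filtered reads, which control they used and what became of reads with several matches in the genome is not stated in the labels or the files. The inputs and the reads were not analysed here, so depth is unknown, and no mm9 sequence or annotation was used.

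Members and settings were chosen with earlier results of these data known. Window density was counted from 3 Mb, where the assembled part of these chromosomes starts, to 10 Mb (7 Mb per chromosome), and the middle ran from 20 Mb to 20 Mb before the last peak end of either list. A peak was called shared at an overlap of at least 1 bp with the other list. Shares carry exact Clopper-Pearson 95% intervals, density ratios exact conditional binomial intervals, differences of shares Newcombe intervals and medians exact order-statistic intervals. All of these reflect counting error alone, with each peak taken as independent. No p-value was computed, because there is 1 library per genotype. Named sites were the 10 top-scoring members of each list, the 5 top-scoring with no partner within 1 kb, the member of each list closest to the chromosome start, the peaks nearest to 10 Mb, the 5 shared pairs with the highest knockout score, groups of at least 5 peaks with gaps of up to 10 kb, and the longest stretch without a wild-type peak. The first 0.25 Mb, the single groups at gaps of up to 50 kb and the single chromosomes and peaks named beyond that rule were chosen after their values were seen. The script was tested on simulated data. Python 3.11.15, numpy 2.4.6, pandas 2.3.3, scipy 1.17.1, statsmodels 0.14.6 and matplotlib 3.10.9 were used.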

Additional observations from a re-analysis of the deposited data

How the results depend on the processing

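Of 148 alternative values, 102 left out 1 chromosome each and 100 of those fell inside the reported value's own counting interval. The other 46 used other settings, and 39 fell inside it. The wild-type density ratio of 0.998 became 0.698 with the length counted from the chromosome start, 1.24 in a window below 5 Mb and 0.894 in a window below 15 Mb. Leaving out 1 chromosome gave 0.787 to 1.03, with the lowest value without chromosome 19. The knockout ratio of 1.25 reversed to 0.878 with the length from the chromosome start, which adds the placeholder, and became 1.66 (1.05 to 2.53) at scores of at least 100. The value of 1.66 rests on 25 window peaks, some of them neighbours in the group on chromosome 10. It was not computed without that group. The shared share became 6.94% of wild-type and 48.0% of knockout peaks at scores of at least 100, where the middle had 7.42% and 53.6%. Leaving out 1 chromosome gave window shares of 4.39 to 5.88% and 13.4 to 15.9%. For the wild-type median score it gave 107.84 to 111.08, and for the median width 2102 to 2185 bp, the lowest without chromosome 19. Beyond the added placeholder, the cause of these shifts was not tested. Since depth is unknown, a site without a peak is one that was not called, which need not mean that TopoIIa was absent. No paired analysis was possible because there are no replicate libraries.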
